A study of Mus musculus with 8 samples.

Results

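The genes examined here encode the enzymes and transporters of glycolysis, of lactate handling, of the step that admits pyruvate to the mitochondria and of the pentose phosphate pathway, 32 genes in all, in CDPs of HFD and CF mice. They were taken by symbol from a written list, a rule that uses no value measured in these libraries, and were matched by Ensembl identifier through GENCODE vM21 (GRCm38). All 32 were among the 16119 genes in the authors' count table, and all 32 passed the filter on low counts of edgeR, which left 15837 genes to test. CDPs, the DC-restricted progenitors of the BM, had been sorted as lineage-negative cells with intermediate c-Kit, low Sca-1, CD115 and Flt3, about 50000 cells per library. The HFD group was C57BL/6 mice (C57BL/6J in the methods) labelled DIO (diet-induced obese) after 16 weeks on a diet with 60 kcal% fat. The CF group, labelled DIO-Control and described as age- and diet-matched, ate control chow with 10 kcal% fat. The labels name no transgene, deletion or drug in either group, and the methods describe wild-type males. Each diet had 4 independent replicates, but whether a library came from 1 mouse or from several is not stated, so p-values measure the spread between these libraries. Libraries held 28203651 to 48409689 counts, and single members had between 45 counts (Ldhb in HFD replicate 2) and 12128 counts (Tkt in HFD replicate 1). Levels are given as CPM, the counts scaled to library size after the TMM normalization of edgeR.

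Glycolysis converts glucose to pyruvate in the cytosol. Hexokinases trap the sugar as its phosphate, phosphofructokinase commits it to breakdown, and lactate dehydrogenase with the lactate carriers disposes of pyruvate that does not enter the mitochondria. The pentose phosphate pathway branches off after the hexokinase step, where its oxidative arm makes NADPH and its non-oxidative arm exchanges sugars between ribose for nucleotides and the glycolytic intermediates. Dividing hematopoietic progenitors draw on both pathways for biosynthesis, and neutrophils, which hold few mitochondria, depend largely on glycolysis and use NADPH for their oxidative burst.

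HFD replicate 1 stood apart from all other libraries in markers of several mature lineages, although the sort took lineage-negative cells. Its summed CPM of 15 neutrophil markers was 20753, against 982 to 3642 in HFD replicates 2 to 4 and 2008 to 6719 in CF. All 15 of these markers were highest there, and none of them was at 0 in any library (Ly6g, a surface marker of mature neutrophils, had at least 2.23 CPM). The same library had the highest summed CPM of the 10 erythroid markers (713, against 117 to 167 in HFD replicates 2 to 4 and 103 to 177 in CF) and of the 8 B cell markers (1303, against 464 to 654 and 317 to 551). It had the lowest sum of the 9 conventional DC markers (277, against 601 to 798 and 723 to 1056). Its monocyte and macrophage sum lay within the range of the others (605, against 190 to 500 and 323 to 606), but 7 of these 9 markers were highest there. Its plasmacytoid DC sum was the lowest of the 8 libraries (177, against 304 to 421 and 185 to 234), by a narrow margin to CF. Of the sort markers, Flt3 was 88.8 CPM in HFD replicate 1 and 227 to 378 CPM elsewhere. Kit (34.2 to 53.6 CPM) and Csf1r, which encodes CD115 (79.4 to 133 CPM), were present in all 8 libraries. CF replicate 1 also stood apart within its diet, with a neutrophil sum of 2008 against 6111 to 6719 in CF replicates 2 to 4. In bulk samples such as these, fewer cells of a type and less RNA per cell cannot be told apart.

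No gene of the list was called between HFD and CF. At an adjusted p below 0.05 edgeR called 0 of the 32 members, where it called 67 of the 15837 genes tested (0.423%). At an unadjusted p below 0.05 it again found 0 members, against 8.56% of all genes tested and 5.38% of the protein-coding ones. For 0 of the 32 did the 4 HFD libraries lie apart from the 4 CF libraries, which was so for 6.16% of all genes. The median log2 fold change of the members was 0.092, beside 0.055 over all genes tested and 0.070 over the protein-coding ones, and 22 of the 32 lay above 0. The lowest p belonged to Pfkp, the platelet-type phosphofructokinase, at a log2 fold change of -0.25 (SE 0.15; edgeR, adjusted p = 0.77). The 95% intervals lay within a 2-fold change in either direction for 22 members and within a 1.5-fold change for 11. The widest interval, that of the lactate carrier Slc16a3, ran from 0.30-fold to 3.93-fold.

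**Figure D1:**
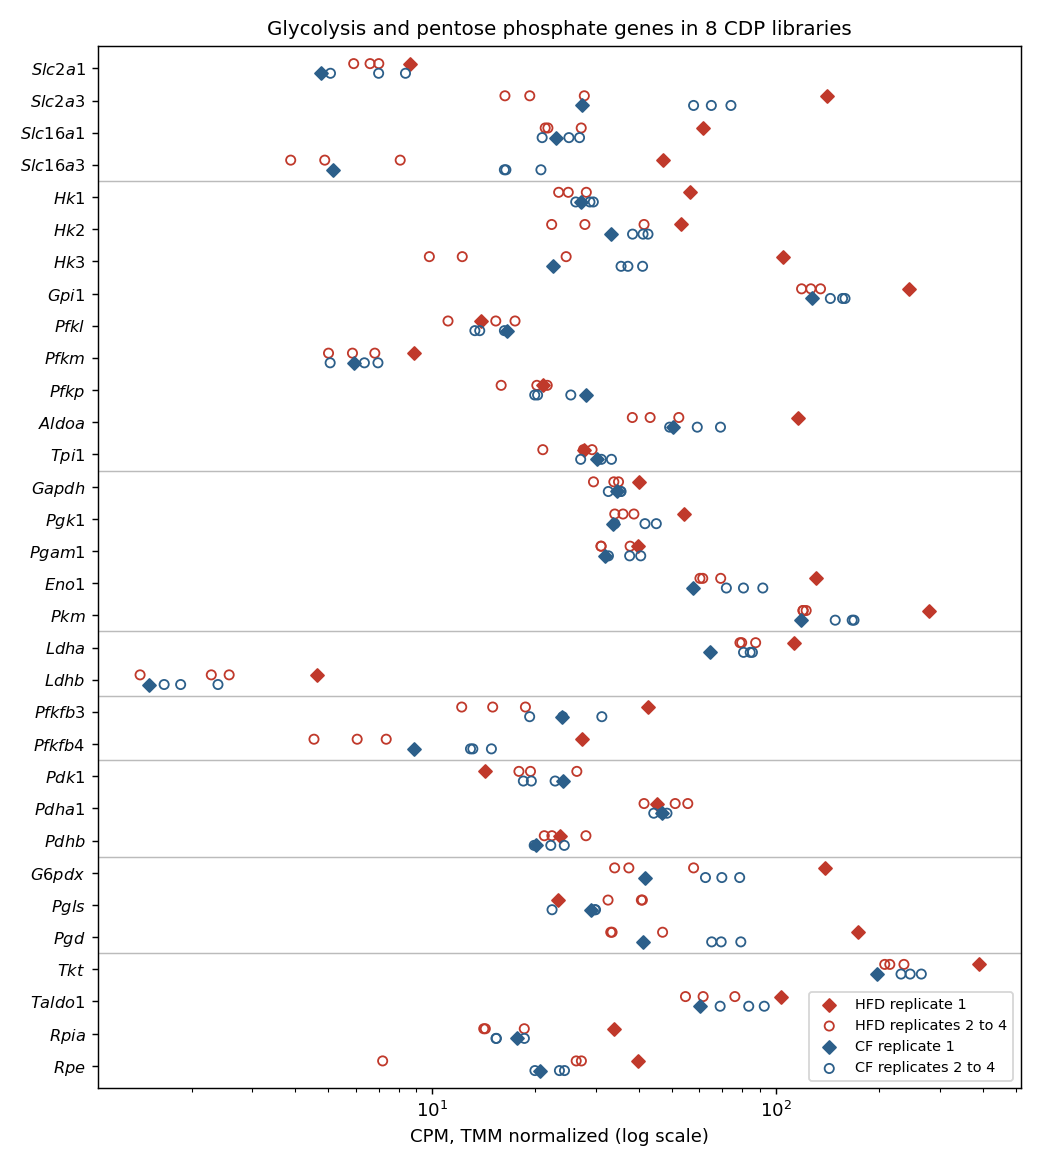
CPM (TMM normalized, log scale) of the 32 genes in each of the 8 CDP libraries, grouped by role from transporters at the top to the non-oxidative pentose phosphate genes at the bottom; filled diamonds are the libraries of replicate 1 and open circles are replicates 2 to 4. The red diamond of HFD replicate 1 is the highest of the 8 points for 24 of the 32 genes.

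Sugar and lactate carriers of the plasma membrane stand at the entry and the exit of the pathway. Of the 4 carriers, Slc16a3 and Slc2a3 varied more between HFD libraries (CV 130% and 118%) than Slc16a1 (58.3%) and Slc2a1 (16.4%). Slc16a1, a carrier that moves lactate in either direction, measured 61.5, 27.2, 21.4 and 21.7 CPM in HFD replicates 1 to 4 and 22.9, 26.9, 25.04 and 20.9 CPM in CF replicates 1 to 4 (log2 fold change 0.46, SE 0.33, 95% interval -0.30 to 1.22; edgeR, adjusted p = 0.81). Its HFD value above the CF range came from HFD replicate 1 and, by a narrow margin, replicate 2. Slc16a3, the lactate exporter typical of highly glycolytic cells, measured 47.0, 8.09, 3.88 and 4.88 CPM in HFD and 5.17, 16.4, 20.8 and 16.2 CPM in CF (log2 fold change 0.12, SE 0.81; adjusted p = 0.99). Its HFD replicates 2 to 4 all lay below CF replicates 2 to 4, with CF replicate 1 among them and HFD replicate 1 above all others. Slc2a3, a high-affinity glucose transporter, measured 141, 27.7, 19.3 and 16.3 CPM in HFD and 27.4, 57.7, 74.1 and 65.0 CPM in CF (log2 fold change -0.14, SE 0.70; adjusted p = 0.98). The order of the libraries was close to that of Slc16a3. Slc2a1, the widespread basal glucose transporter, was low throughout, with 8.63, 6.61, 7.00 and 5.92 CPM in HFD and 4.75, 7.00, 8.38 and 5.07 CPM in CF (log2 fold change 0.16, SE 0.22; adjusted p = 0.92). It did not share the large gap between HFD replicate 1 and the rest.

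The promoter of Slc16a3 is shown because this gene had the steepest relation to the neutrophil markers among the members. Its sequence is RefSeq's on GRCm38.p6, the 250 bases before the start, plus strand, chr11:120948817-120949066, with ACGTG, the core letters of the hypoxia response element, in capitals where they occur on either strand. The GENCODE model of Slc16a3 begins further upstream, at 120948480, so that the window lies inside its span, before the start that RefSeq gives.
Slc16a3 promoter: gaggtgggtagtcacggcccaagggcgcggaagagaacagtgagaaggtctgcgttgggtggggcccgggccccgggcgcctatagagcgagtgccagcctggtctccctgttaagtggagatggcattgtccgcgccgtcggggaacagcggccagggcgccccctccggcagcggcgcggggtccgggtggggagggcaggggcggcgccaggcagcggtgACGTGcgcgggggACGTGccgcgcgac

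Hexokinases, which phosphorylate glucose on entry, differed among themselves in how they varied. Hk1, the broadly expressed form, measured 56.2, 28.1, 24.9 and 23.4 CPM in HFD and 27.2, 28.8, 29.5 and 26.2 CPM in CF (log2 fold change 0.25, SE 0.27; edgeR, adjusted p = 0.89). Hk2, the inducible form, measured 53.1, 41.4, 22.3 and 27.9 CPM in HFD and 33.2, 41.1, 42.5 and 38.3 CPM in CF (log2 fold change -0.10, SE 0.25; adjusted p = 0.96). Hk3, the form abundant in myeloid cells, measured 105, 24.6, 12.3 and 9.83 CPM in HFD and 22.6, 35.5, 41.0 and 37.2 CPM in CF (log2 fold change 0.15, SE 0.70; adjusted p = 0.98). The CV over the CF replicates was 5.35% for Hk1, 10.6% for Hk2 and 23.5% for Hk3, and over the HFD replicates it was 46.7%, 38.3% and 119%. For Hk3, HFD replicates 3 and 4 were below every CF library and HFD replicate 1 above every one.

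The promoter of Hk3, the member with the next steepest relation to the same markers, is given in the same way, 5′ to 3′ on its own minus strand, chr13:55021386-55021635, GRCm38.p6, RefSeq. Here the capitals mark CACGT, which is ACGTG on the other strand, and TTCCTC, which is GAGGAA on the other strand, the letters that ETS factors of myeloid cells such as PU.1 recognise.
Hk3 promoter: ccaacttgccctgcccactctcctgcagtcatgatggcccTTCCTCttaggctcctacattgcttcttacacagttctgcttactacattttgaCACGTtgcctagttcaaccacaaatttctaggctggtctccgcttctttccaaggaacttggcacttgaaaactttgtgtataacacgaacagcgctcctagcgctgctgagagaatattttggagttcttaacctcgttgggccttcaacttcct

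RefSeq promoters of this length were matched for 31 of the 32 members, without Slc2a3, and for 27025 genes in all, 1 window per gene. On either strand, ACGTG was found in 11 of the 31 (35.5%) and in 16.6% of all windows, GAGGAA in 7 (22.6%) and 23.1%, and TTGCNNAA, letters read by C/EBP factors of granulocytes, in 5 (16.1%) and 9.6%. The genes with ACGTG were Hk2, Hk3, Ldha, Pdhb, Pfkfb3, Pfkm, Pgam1, Pgk1, Slc16a1, Slc16a3 and Slc2a1. A match describes the letters of the window and is no measured binding site. Windows were not matched in base composition or expression, and the difference between the shares was not tested.

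The remaining genes of the upper pathway lead from glucose phosphate to the triose phosphates. Pfkp measured 21.1, 21.6, 15.9 and 20.2 CPM in HFD and 27.98, 20.3, 25.4 and 19.9 CPM in CF. Its 2 highest values were CF replicates 1 and 3 and its lowest was HFD replicate 3, with the other 5 libraries between 19.9 and 21.6 CPM. Exons of Pfkp overlap those of Pitrm1 on the other strand, and whether strand was used in the counting is not given in the sources used here. Pfkl, the liver-type subunit of the same enzyme, measured 13.9, 11.1, 17.4 and 15.3 CPM in HFD and 16.5, 13.8, 16.2 and 13.3 CPM in CF (log2 fold change -0.05, SE 0.16; edgeR, adjusted p = 0.97). Tpi1, the triose phosphate isomerase, measured 27.7, 21.0, 29.2 and 27.6 CPM in HFD and 30.2, 31.1, 33.3 and 27.1 CPM in CF (log2 fold change -0.21, SE 0.13, 95% interval -0.49 to 0.083; adjusted p = 0.77). The diets were interleaved for Pfkl, while for Tpi1 CF replicates 1 to 3 lay above all HFD libraries and CF replicate 4 among them. For both genes HFD replicate 1 lay within the range of the others. The other 3 were Gpi1, the glucose phosphate isomerase (156 ± 59.4 CPM in HFD and 147 ± 14.2 in CF, SD, n = 4), Aldoa, the aldolase of most tissues (62.4 ± 36.1 and 56.9 ± 9.26) and Pfkm, the muscle-type phosphofructokinase (6.64 ± 1.66 and 6.08 ± 0.80). Their log2 fold changes were 0.09 to 0.13, and their SDs in HFD were larger than in CF. Exons are shared with another gene on the same strand for Pfkm (Gm26513) and Pkm (Gm49759), and on the other strand for Gpi1 (Gm26762), Pdha1 (Map3k15), G6pdx (Ikbkg) and Rpe (Kansl1l), so on the same strand the assignment of shared reads is uncertain, and on the other strand it is uncertain if strand was not used.

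Lower glycolysis is the stretch in which ATP is regained. Pgk1, the phosphoglycerate kinase, had the lowest p of these genes, and measured 54.2, 36.0, 34.03 and 38.7 CPM in HFD and 33.6, 44.9, 41.7 and 34.02 CPM in CF (log2 fold change 0.079, SE 0.17; edgeR, adjusted p = 0.96). Apart from HFD replicate 1, the libraries of both diets shared the range from 33.6 to 44.9 CPM. Gapdh, the dehydrogenase of this stretch that is often used as a reference gene, was 34.5 ± 4.29 CPM in HFD and 34.5 ± 1.34 CPM in CF (SD, n = 4), a log2 fold change of 0.0011 with a 95% interval from -0.25 to 0.25. Pgam1, the phosphoglycerate mutase, was 34.9 ± 4.57 and 35.6 ± 4.11 CPM. The enolase Eno1 (80.5 ± 34.1 and 75.4 ± 14.4 CPM) and the pyruvate kinase Pkm (160 ± 78.9 and 151 ± 23.5 CPM) had the wider spread of this group in HFD. For Pkm, HFD replicate 1 was at 279 CPM while HFD replicates 2 to 4 were within 120 to 123 CPM. Gapdh has 75 genes of near-identical sequence in the annotation, 72 of them pseudogenes, and 14 are in the count table. Eno1 has 3, among them Eno1b. Near-identical genes in the count table were also found for Pgk1 (Pgk1-rs7 and Gm5537), Pgam1 (Pgam1-ps2), Pkm (Gm6560), Gpi1 (Gm1840) and Pdhb (Gm6123). The counts of all these members are uncertain by what the counting gave to those copies.

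Lactate dehydrogenase is built from the subunits of Ldha, which favours lactate formation, and Ldhb, which favours its oxidation. Ldha measured 113, 79.6, 78.7 and 87.4 CPM in HFD and 64.4, 85.6, 84.3 and 80.6 CPM in CF (log2 fold change 0.19, SE 0.15, 95% interval -0.15 to 0.53; edgeR, adjusted p = 0.83). Ldhb measured 4.62, 1.42, 2.57 and 2.28 CPM in HFD and 1.499, 2.39, 1.86 and 1.66 CPM in CF (log2 fold change 0.56, SE 0.35, 95% interval -0.25 to 1.36; adjusted p = 0.78). Each had its highest value in HFD replicate 1, and for Ldhb the lowest value was an HFD library too. Pfkfb3 and Pfkfb4 make and remove the fructose bisphosphate that activates phosphofructokinase, and were the only role in which no gene had a log2 fold change above 0. Pfkfb3, the form with the stronger kinase activity, measured 42.5, 12.2, 18.7 and 15.02 CPM in HFD and 23.9, 19.2, 31.2 and 24.02 CPM in CF (log2 fold change -0.15, SE 0.37; adjusted p = 0.96). Its HFD replicates 2 to 4 were all below the 4 CF libraries and HFD replicate 1 was above them. Pfkfb4 had the same arrangement, with 4.54 to 7.36 CPM in HFD replicates 2 to 4, 8.89 to 14.9 CPM in CF and 27.3 CPM in HFD replicate 1.

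Pyruvate enters the mitochondrial cycle through pyruvate dehydrogenase, whose subunits are encoded by Pdha1 and Pdhb and which Pdk1 switches off. Pdhb measured 23.6, 22.3, 21.2 and 28.1 CPM in HFD and 20.1, 24.3, 19.8 and 22.2 CPM in CF (log2 fold change 0.14, SE 0.12, 95% interval -0.14 to 0.42; edgeR, adjusted p = 0.85). Pdha1 was 48.3 ± 6.23 CPM in HFD and 46.5 ± 1.69 CPM in CF, and Pdk1 19.5 ± 5.09 and 21.2 ± 2.66 CPM (SD, n = 4). In contrast to most members, HFD replicate 1 was not the highest library for any of the 3, and for Pdk1 it was the lowest, at 14.2 CPM.

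The oxidative arm of the pentose phosphate pathway has 3 enzymes, of which G6pdx and Pgd each produce NADPH and Pgls, the lactonase, works between them. Pgls measured 23.2, 32.5, 40.7 and 40.9 CPM in HFD and 28.9, 29.8, 22.4 and 29.9 CPM in CF (log2 fold change 0.31, SE 0.19, 95% interval -0.12 to 0.74; edgeR, adjusted p = 0.77). HFD replicates 2 to 4 lay above all CF libraries, and HFD replicate 1 was near the lowest CF value. Exons of Pgls overlap those of Fam129c on the same strand, so reads could be assigned to either gene, and Fam129c had a log2 fold change of 0.59 (SE 0.17; edgeR, adjusted p = 0.20). For the NADPH-producing enzymes HFD replicate 1 was at the other end, above all libraries, and the remaining HFD replicates overlapped with CF. G6pdx was 140 CPM in HFD replicate 1, 34.001 to 57.7 CPM in HFD replicates 2 to 4 and 41.8 to 78.6 CPM in CF. Pgd was 173 CPM in HFD replicate 1, 33.1 to 46.9 CPM in HFD replicates 2 to 4 and 41.0 to 79.2 CPM in CF. Their log2 fold changes of 0.089 (SE 0.45) and 0.17 (SE 0.54) therefore came with intervals from -0.93 to 1.11 and from -1.07 to 1.41.

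In the non-oxidative arm, Rpia, which forms ribose phosphate, measured 33.9, 18.6, 14.3 and 14.1 CPM in HFD and 17.7, 18.6, 15.4 and 15.4 CPM in CF (log2 fold change 0.27, SE 0.27; edgeR, adjusted p = 0.88). Without its highest library the values of both diets shared the range from 14.1 to 18.6 CPM. The transketolase Tkt was 262 ± 85.7 CPM in HFD and 235 ± 28.5 CPM in CF, and the transaldolase Taldo1 74.0 ± 21.7 and 76.3 ± 14.5 CPM (SD, n = 4). Rpe, the ribulose phosphate epimerase, was 39.7 CPM in HFD replicate 1 and 7.19 CPM in HFD replicate 3, with the other 6 libraries between 19.9 and 27.2 CPM. No gene of this arm had a larger log2 fold change than Rpia.

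**Figure D2:**
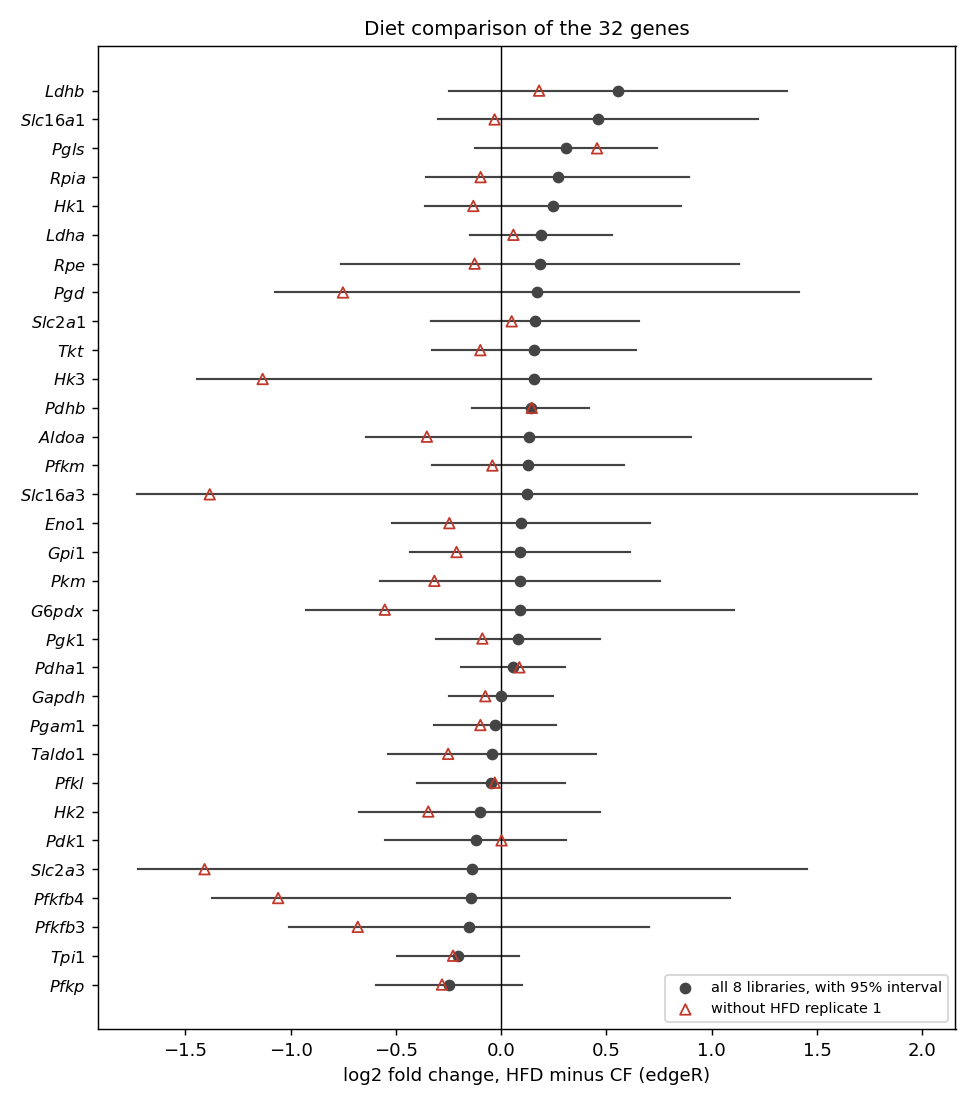
Log2 fold change of each of the 32 genes, HFD minus CF, in the edgeR fit of all 8 libraries (black circles, bars are 95% intervals) and without HFD replicate 1 (red triangles). All 32 intervals include 0, and the triangles of Slc16a3, Slc2a3, Hk3, Pfkfb4, Pgd, Pfkfb3 and G6pdx lie below -0.5.

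Per kilobase of exon, which allows genes to be compared with each other, Tkt had the highest level of the members in CF with 73.0 ± 8.86 CPM per kb (SD, n = 4). Pkm at 58.0 ± 9.04, Taldo1 at 56.0 ± 10.6 and Gpi1 at 51.0 ± 4.93 CPM per kb followed, and these 3 did not differ beyond their spread. Ldha came next at 41.5 ± 5.15 CPM per kb. The other end was formed by Pfkm at 2.03 ± 0.27, Slc2a1 at 1.93 ± 0.52 and Ldhb at 1.42 ± 0.30 CPM per kb. Slc2a1 did not differ from Pfkm or from Ldhb beyond the spread. Among the hexokinases the order in CF was Hk3 (10.2 ± 2.39 CPM per kb), Hk2 (6.91 ± 0.73) and Hk1 (5.76 ± 0.31), and among the phosphofructokinase genes Pfkp (5.44 ± 0.92), Pfkl (4.01 ± 0.44) and Pfkm.

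Balance between related genes was compared by 6 log2 ratios of counts within a library, which do not depend on the scaling between libraries. None of the 6 passed an exact two-sided permutation test between the diets, whose smallest possible p for 4 against 4 libraries is 0.029. A single ratio at that p reaches only 0.17 after adjustment over the 6, so a lone difference could not pass. Slc2a1/Slc2a3 was -2.25 ± 1.22 in HFD and -3.10 ± 0.47 in CF (difference 0.84, exact p = 0.20, Benjamini-Hochberg 0.39 over the 6 ratios). Slc16a1/Slc16a3 was 1.69 ± 0.91 and 0.87 ± 0.87 (difference 0.81, exact p = 0.26). For each of these carrier pairs, HFD replicates 2 to 4 lay above CF replicates 2 to 4, while HFD replicate 1 was at or near the low end of all libraries. Without HFD replicate 1 the differences were 1.43 for Slc2a1/Slc2a3 (exact p = 0.029, Benjamini-Hochberg 0.17) and 1.25 for Slc16a1/Slc16a3 (exact p = 0.086). Hk3/Hk1 was -0.39 ± 0.97 and 0.25 ± 0.36 (difference -0.64, exact p = 0.26; -1.08 without HFD replicate 1, exact p = 0.086). Hk2/Hk1 was 0.14 ± 0.33 and 0.47 ± 0.12 (difference -0.33, exact p = 0.17; -0.47 without HFD replicate 2, exact p = 0.029, Benjamini-Hochberg 0.17). Ldha/Ldhb was 5.16 ± 0.51 and 5.42 ± 0.19 (difference -0.27, exact p = 0.37), so that Ldha had by far the more counts in every library. Pfkp/Pfkl was 0.45 ± 0.46 and 0.64 ± 0.091 (difference -0.18, exact p = 0.57).

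**Figure D3:**
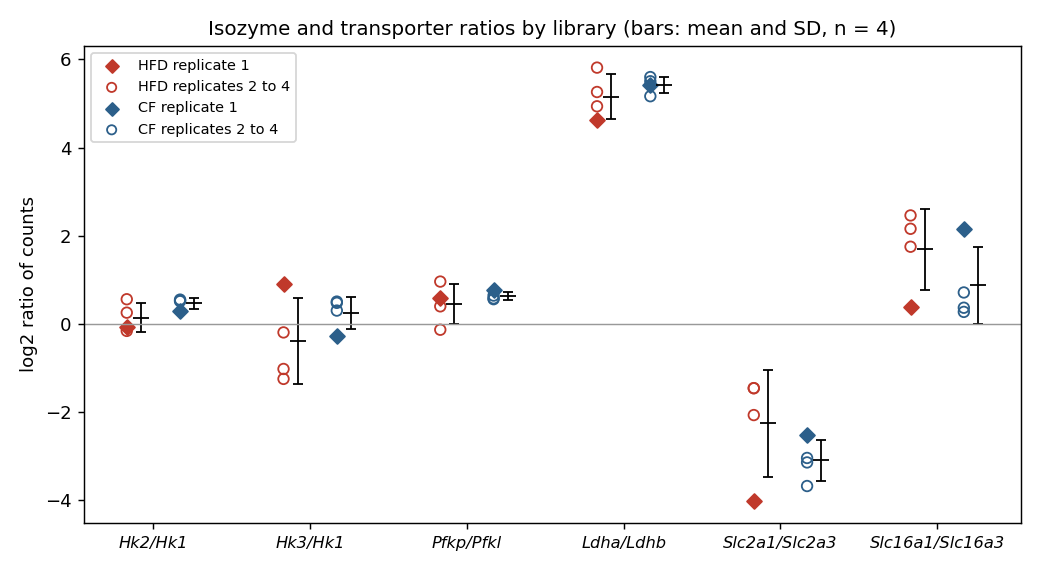
Log2 ratio of counts for 6 pairs of related genes in each CDP library, HFD in red and CF in blue, replicate 1 as filled diamonds and replicates 2 to 4 as open circles; bars are mean and SD (n = 4). HFD replicate 1 (red diamond) is at -4.03 for Slc2a1/Slc2a3, where the other HFD replicates are between -2.07 and -1.46.

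The spread of the members was larger in HFD than in CF. The CV was larger in HFD for 30 of the 32 genes (93.8%), all but Pfkp and Slc2a1, and for 69.4% of the protein-coding genes tested. Over HFD replicates 2 to 4 it was larger than in CF for 18 of the 32, and for 53.2% of the protein-coding genes. Its median over the members was 38.1% in HFD and 13.1% in CF, beside 19.5% and 14.0% over the protein-coding genes, and 15.7% over HFD replicates 2 to 4 of the members. HFD replicate 1 was the highest of the 8 libraries for 24 of the 32 members, as it was for 29.9% of the protein-coding genes tested. The members took 0.637% of its protein-coding counts, 0.341% to 0.360% of those in HFD replicates 2 to 4 and 0.360% to 0.442% of those in CF. In 14 members it was over 2 times the mean of the other HFD replicates. The ratio was 8.37 for Slc16a3, 6.76 for Hk3, 6.67 for Slc2a3, 4.59 for Pgd, 4.56 for Pfkfb4 and 3.24 for G6pdx, and between 2.07 and 2.78 for Pfkfb3, Slc16a1, Aldoa, Pkm, Ldhb, Hk1, Rpia and Eno1. It was below 1 for Pgls (0.61), Pdk1 (0.67), Pdha1 (0.92), Pfkl (0.95) and Pdhb (0.99).

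Levels were therefore set against a neutrophil score, the mean log2 CPM of the 15 neutrophil markers. It was 8.99, 6.33, 5.05 and 4.63 in HFD replicates 1 to 4 and 5.72, 7.31, 7.33 and 7.20 in CF replicates 1 to 4. Diet and score were put in 1 edgeR fit over all genes, and reading its slopes was chosen after the data were seen. The slope on the score was above 0 at an adjusted p below 0.05 for 16 of the 32 members, compared with 11.4% of all genes tested, and below 0 for 1 (Pgls). The median slope was 0.23 log2 units per unit of score for the members and -0.0076 for all genes, and without HFD replicate 1 it was 0.093 and -0.0033. The slope was 0.85 for Slc16a3 (SE 0.069; adjusted p = 3.2e-05), 0.74 for Hk3 (SE 0.045), 0.73 for Slc2a3 (SE 0.047), 0.56 for Pgd (SE 0.042), 0.55 for Pfkfb4 (SE 0.050) and 0.47 for G6pdx (SE 0.038). The steepest slopes thus belonged to a lactate carrier, a glucose transporter, the myeloid hexokinase, the NADPH-producing enzymes and a regulator of phosphofructokinase. Called slopes of 0.19 to 0.33 belonged to Aldoa, Slc16a1, Pfkfb3, Pkm, Eno1, Hk1, Rpia, Hk2, Gpi1 and Tkt. Pgls had a slope of -0.18 (SE 0.046; adjusted p = 0.028). Slopes that were not called were -0.15 to 0.24, and those of Gapdh (0.043), Pfkp (0.0094), Tpi1 (-0.0064) and Pdhb (-0.0095) were each close to their SE or below it.

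**Figure D4:**
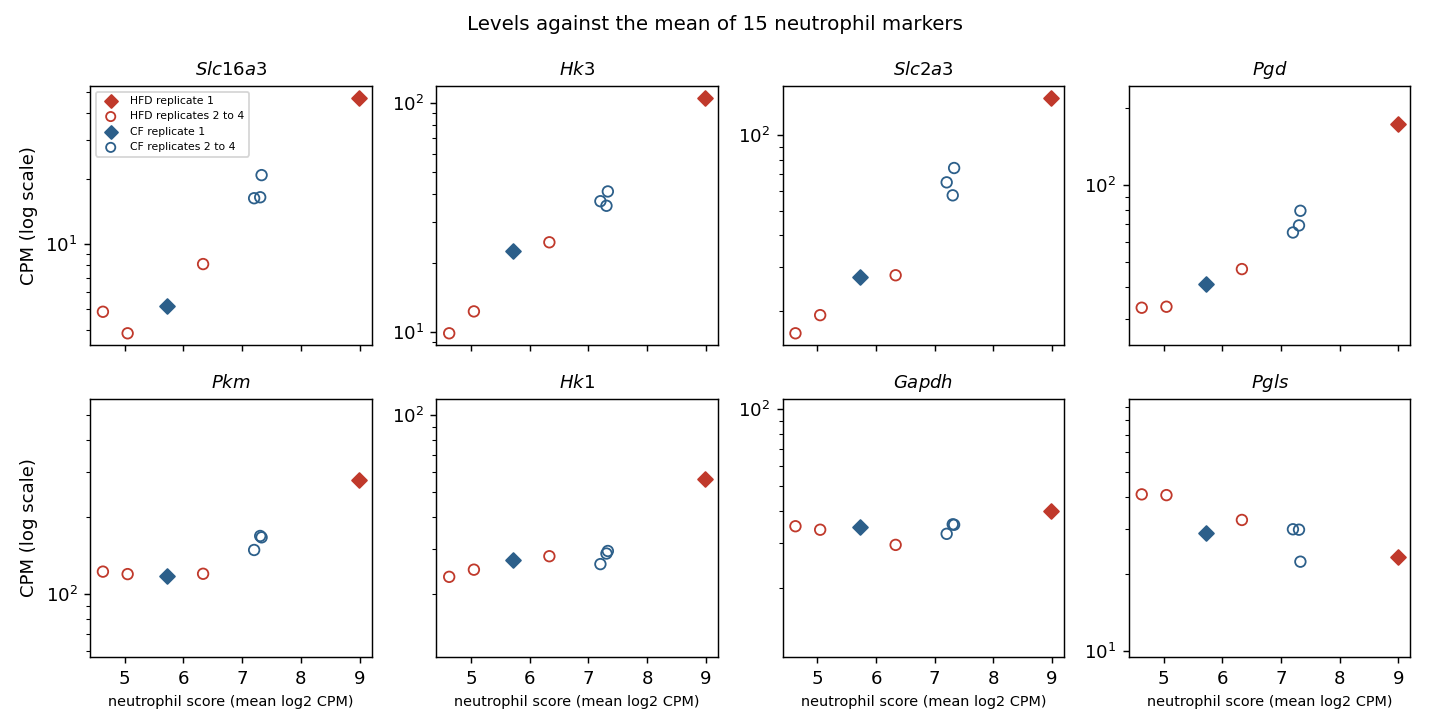
CPM (log scale) of 8 members in the 8 CDP libraries against the neutrophil score (mean log2 CPM of 15 markers), each panel on an axis of its own; diamonds are replicates 1, circles replicates 2 to 4, HFD red and CF blue. In the upper row (Slc16a3, Hk3, Slc2a3, Pgd) the levels rise from a score of 4.63 to 8.99, both HFD libraries, and CF scores cover 5.72 to 7.33. Gapdh stays between 29.5 and 40.0 CPM, and Pgls is lower at high scores.

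The slopes rested in part on HFD replicate 1, the library with the highest score. Without it, the slopes called above 0 fell from 11.4% to 1.16% of all genes tested, and 4 of the members were called, Hk3 (0.61), Slc2a3 (0.64), G6pdx (0.45) and Pgd (0.42). Slc16a3 kept a slope of 0.84 (adjusted p = 0.061) and Pfkfb4 was at 0.38 (adjusted p = 0.13), while Pfkfb3 went from 0.29 to -0.087. Of the shallower called slopes, Slc16a1 went from 0.32 to 0.13, Pkm from 0.28 to 0.15, Hk1 from 0.26 to 0.090 and Rpia from 0.25 to 0.077, and Eno1 (0.23) and Hk2 (0.29) stayed near their values. The 10 erythroid markers and 5 of the 8 B cell markers were also highest in HFD replicate 1. So were 7 of the 9 monocyte and macrophage markers. The part of any of these marker groups in the members' levels was not tested. With the score in the fit, 0 members were called between the diets by edgeR, and 4 had an unadjusted p below 0.05, against 14.2% of all genes tested. These were Slc16a1 (log2 fold change 0.51, SE 0.14; adjusted p = 0.094), Hk1 (0.31, SE 0.12), Ldha (0.26, SE 0.11) and Ldhb (0.65, SE 0.29), each with a value above 0.

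**Figure D5:**
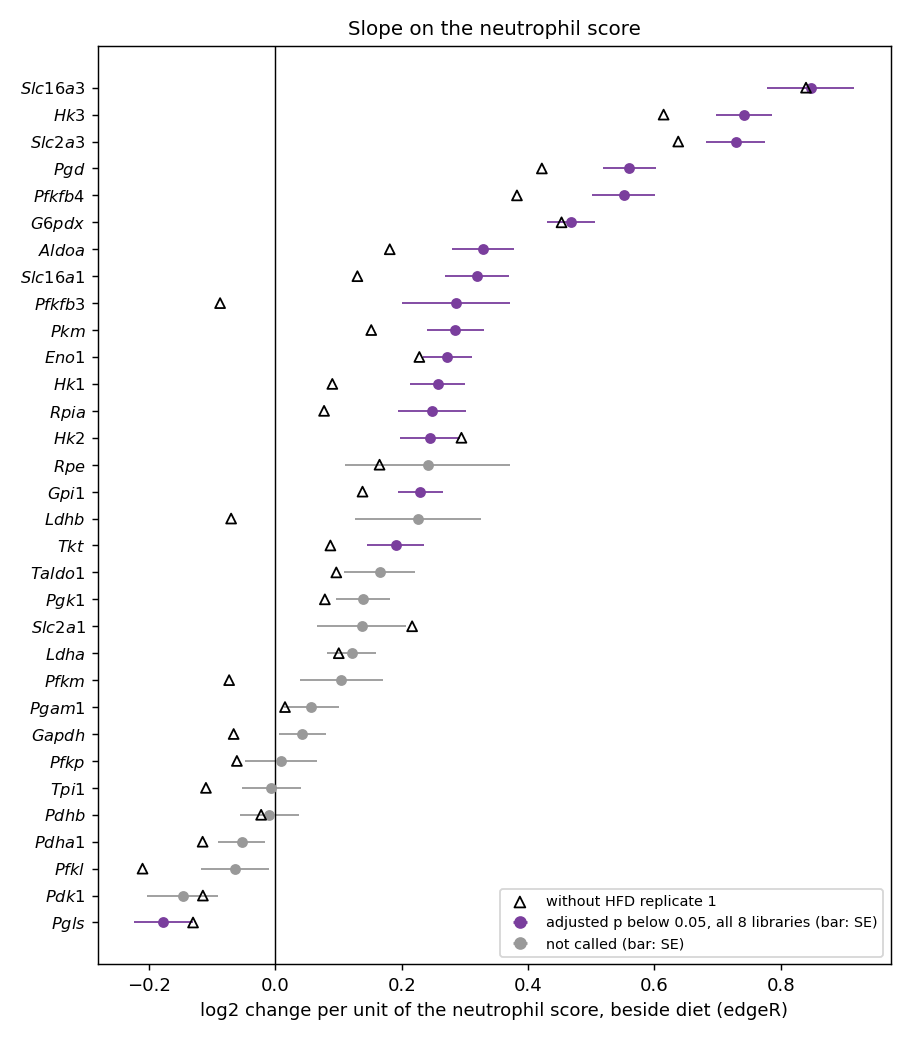
Slope of each of the 32 genes on the neutrophil score beside diet, in log2 units per unit of score (edgeR); circles are the fit of all 8 libraries with its SE, purple where the adjusted p is below 0.05, and triangles the fit without HFD replicate 1. The 16 purple circles to the right of 0 run from 0.19 (Tkt) to 0.85 (Slc16a3), and Pgls is the purple circle to the left, at -0.18.

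Leaving out HFD replicate 1 moved the members from mostly above 0 to mostly below it. Then 7 of the 32 had a log2 fold change above 0, with a median of -0.13, and 17 changed sign. None was called by edgeR, against 1.26% of all genes. At an unadjusted p below 0.05 there were 9 members, against 14.6% of all genes. Of these, 8 had values below 0, namely Pfkfb4 (-1.06, SE 0.22; adjusted p = 0.065), Slc2a3 (-1.41, SE 0.34), Slc16a3 (-1.38, SE 0.46), Hk3 (-1.13, SE 0.33), Pgd (-0.75, SE 0.23), Pfkfb3 (-0.68, SE 0.19), Aldoa (-0.35, SE 0.15) and Pkm (-0.32, SE 0.14). Pgls was the one above 0, at 0.46 (SE 0.14; adjusted p = 0.16). CF replicates 2 to 4 had neutrophil scores above those of HFD replicates 2 to 4. With CF replicate 1 left out as well, an alternative added after the data were seen, 4 members were called, all lower in HFD, where 2.45% of all genes were called. These were Slc2a3 (-1.64, SE 0.20; adjusted p = 0.0093), Slc16a3 (-1.67, SE 0.27; adjusted p = 0.019), Pfkfb4 (-1.19, SE 0.20; adjusted p = 0.020) and Pgd (-0.91, SE 0.16; adjusted p = 0.028). These calls were absent from the fit of all 8 libraries, and the neutrophil sums of the remaining libraries ran from 982 to 3642 (HFD) and from 6111 to 6719 (CF). The plasmacytoid DC sums of these libraries did not overlap either, with 304 to 421 (HFD) and 217, 234 and 186 (CF). Nor did their B cell sums, with 612, 654 and 464 (HFD) and 447, 317 and 325 (CF). The part of any of these marker groups in these calls was not tested.

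Neighbouring genes of the pathway gave no call between the diets either. Of a list of 62 further genes of glucose, pyruvate and pentose metabolism, 41 were tested, edgeR called 0 of them (0.423% of all genes were called), 3 had an unadjusted p below 0.05 (8.56% of all genes), and 33 lay above 0 with a median log2 fold change of 0.17. HFD replicate 1 was the highest library for 19 of the 41, and without it 23 lay above 0 with a median of 0.075. Its summed CPM of 956, against 612 to 637 in HFD replicates 2 to 4 and 581 to 693 in CF, held 1 gene with a large share of the excess, Adpgk, at 282 CPM in that library and 35.0 to 78.1 CPM in the others. The lowest p were those of Slc16a7, another monocarboxylate carrier (0.73, SE 0.24; 7.42 to 18.0 CPM among HFD libraries and 6.99 to 8.35 among CF libraries; adjusted p = 0.32), and of Pcx, which carboxylates pyruvate (1.59, SE 0.53; 1.41 to 2.98 and 0.21 to 1.18 CPM; adjusted p = 0.33). The remaining gene of the 3, named after its values were seen, was the carrier chaperone Emb, at -0.26 (SE 0.10; 109 to 131 and 136 to 158 CPM; adjusted p = 0.49). Of 30 regulators of glycolysis and hypoxia targets, 26 were tested, and set against the same shares 0 were called and 2 had an unadjusted p below 0.05. Of the 26, 17 lay above 0 with a median of 0.070, and 12 with a median of -0.0049 without HFD replicate 1. Mlx, a partner of the glucose-sensing transcription factors, had the lowest p (-0.61, SE 0.22; adjusted p = 0.41), followed by Myc, an activator of many glycolytic genes (0.39, SE 0.16; adjusted p = 0.54).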

How the data were processed

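RNA of sorted CDPs had been amplified with the NuGen Ovation Solo RNA-Seq System and sequenced in paired reads. The authors deposited raw counts per gene, which they made with cutadapt, FastQC, HISAT2 and StringTie on GRCm38 and GENCODE comprehensive, from uniquely mapped read pairs. The versions of these tools, the annotation release and the strandedness are not given in the sources used here. Columns were matched to replicates by the sample number in their names. Of 16119 genes, 16067 were found in GENCODE vM21 and 52 were not. The rule for members uses no measured value, but the list of members and the other lists were written with earlier results of these data known.

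Counts were analysed with edgeR 4.0.16 in R 4.3.3 (filterByExpr by diet, TMM, robust quasi-likelihood fit, Benjamini-Hochberg over all 15837 genes tested, threshold 0.05), tested on simulated data. SE is the size of the log2 fold change over the square root of F. Log2 CPM used a prior count of 2. Ratios were compared by exact permutation over 70 draws. Tried as alternatives were the RLE size factors, scaling by library size alone, protein-coding genes alone, no filter, at least 1 CPM in 4 libraries, DESeq2 1.42.0, limma voom 3.58.1, a linear model on log2(CPM + 1), the replicate block, the neutrophil score as covariate and each library left out. Depth was 28203651 to 48409689 counts per library. Near-identical genes were found with blastn 2.17.0 (at least 95% identity over 400 nt).

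Per-library values are given for the member with the lowest p in each of 8 roles, the next 4 lowest p (Tpi1, Ldha, Hk1 and Slc2a1) and the genes of the 6 ratios. Other members singled out, such as Pgd, G6pdx, Pfkfb4 and Pkm, were picked once their values were known, as were the motif letters and the promoters shown.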

Additional observations from a re-analysis of the deposited data

Results flagged for a closer look

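In groups of 4 libraries, a value was looked at again where its gap to the nearest of the others, divided by the range of the group, passed the 95% critical value of Dixon's test. Of 80 groups looked at, 5 passed, and chance gives about 1 in 20. HFD replicate 1 was far from the other HFD replicates in Pkm, the pyruvate kinase, with a log2 CPM of 8.12 against 6.91 to 6.94. The same library stood apart in the share of protein-coding counts taken by all 32 members, 0.637% against 0.341% to 0.360%. CF replicate 1 was far below the other CF replicates in the neutrophil score, 5.72 against 7.20 to 7.33, and in the Hk2/Hk1 log2 ratio, 0.29 against 0.51 to 0.55. CF replicate 3 was low in Pgls, with a log2 CPM of 4.49 against 4.86 to 4.91.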

How the results depend on the processing

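Between HFD and CF, 0 of the 32 members were called in the edgeR fit and under each alternative but the one without both HFD replicate 1 and CF replicate 1, which called 4. DESeq2 gave no adjusted p for Pgd, so that its 0 covers the others. The count over all genes was 67 and moved to 108 with library size alone, 0 with protein-coding genes alone, 567 with DESeq2, 0 with the linear model, 0 with the replicate block, 669 with the neutrophil score as covariate and 388 without both libraries. Library size alone also moved the median log2 fold change of all genes from 0.055 to 0.25 and that of the members to 0.27. Leaving out 1 library at a time gave 0 to 200 genes, with 200 without HFD replicate 1, 154 without CF replicate 4 and at most 2 without any of the others.

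The sign of small fold changes was not stable, and the cause was not tested. Values that crossed 0 were, with RLE size factors, Gapdh -0.011; with library size alone, Hk2 0.076, Pfkl 0.16, Pgam1 0.16, Pfkfb3 0.011, Pdk1 0.078 and Taldo1 0.14; with protein-coding genes alone, Gapdh -0.040; and with DESeq2, Gapdh -0.011. With limma voom they were Slc16a3 -0.54, Hk3 -0.52, Aldoa -0.0054, Gapdh -0.0059, G6pdx -0.12, Pgd -0.18 and Rpe -0.063. With the linear model they were Slc16a3 -0.42, Hk3 -0.46, Aldoa -0.0023, Gapdh -0.0061, Pkm -0.0022, G6pdx -0.12, Pgd -0.17 and Rpe -0.031. With the neutrophil score as covariate they were Hk3 -0.025, Pgam1 0.0076 and Taldo1 0.047. The replicate block crossed 0 for Slc16a3 -0.79, Hk3 -0.62, Aldoa -0.017, Gapdh -0.0062, Pkm -0.019, G6pdx -0.17, Pgd -0.26 and Rpe -0.012, with a median of -0.015 for the members. Same-numbered libraries of the diets did not deviate together (correlations of -0.44 to -0.078), so the numbers were not taken as pairs. Without both libraries 20 members crossed 0. Of the 4 called there, Slc16a3 (-1.67) and Pgd (-0.91) were among them and Slc2a3 (-1.64) and Pfkfb4 (-1.19) kept their sign.

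With 1 library left out at a time, log2 fold changes that crossed 0 ranged as follows: Slc2a3 -1.41 to 0.13, Slc16a1 -0.031 to 0.62, Slc16a3 -1.38 to 0.45, Hk1 -0.13 to 0.36, Hk2 -0.35 to 0.071, Hk3 -1.13 to 0.45, Gpi1 -0.21 to 0.18, Pfkl -0.15 to 0.057, Pfkm -0.042 to 0.24, Aldoa -0.35 to 0.31, Gapdh -0.075 to 0.069, Pgk1 -0.089 to 0.16, Pgam1 -0.11 to 0.037, Eno1 -0.25 to 0.21, Pkm -0.32 to 0.20, Pfkfb3 -0.68 to 0.047, Pfkfb4 -1.06 to 0.075, Pdk1 -0.30 to 0.0018, Pdha1 -0.059 to 0.12, G6pdx -0.55 to 0.31, Pgd -0.75 to 0.41, Tkt -0.10 to 0.25, Taldo1 -0.25 to 0.075, Rpia -0.10 to 0.40 and Rpe -0.13 to 0.49. The low end came from the fit without HFD replicate 1 in all of these but Pfkl, Pgam1, Pdk1 and Pdha1. Differences in log2 ratio ranged from -0.35 to 0.015 for Pfkp/Pfkl, 0.58 to 1.43 for Slc2a1/Slc2a3, 0.56 to 1.25 for Slc16a1/Slc16a3, -1.08 to -0.36 for Hk3/Hk1, -0.47 to -0.23 for Hk2/Hk1 and -0.49 to -0.087 for Ldha/Ldhb. The members whose slope on the neutrophil score was called numbered 17 (16 above 0) of 2632 genes called in all. They were 4 of 189 without HFD replicate 1, 19 of 2018 without HFD replicate 4, 17 of 2496 without CF replicate 1 and 16 of 2546 for a score of 6 granule genes. Ldhb, with 45 counts in its lowest library, is the member whose depth limits the value most.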
